A study of Mus musculus with 12 samples.

Results

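The comparison described here sets the oviducts of 4 mice given a high dose of lipopolysaccharide (LPS, 10 µg) against those of 4 mice given a low dose (2 µg), which are 8 of the 12 lanes of the series. All 185 endogenous probes of the panel entered the description: 179 inflammation genes and 6 reference genes. Of the inflammation genes, 165 exceeded the background set by negative control probes in 4 or more lanes and were tested, and 14 did not (C8a, C9, Crp, Gngt1, Ifnb1, Ifng, Il11, Il12a, Il2, Il22, Il3, Il5, Il9 and Mbl2). The mice were CD1 females aged 6 to 8 weeks, of an outbred stock with no genetic modification in the labels. At estrus each was injected intraperitoneally, in 100 µL of phosphate-buffered saline, with LPS from Escherichia coli serotype 055:B5, the 4 control mice receiving 0 µg. Oviducts were taken 24 h later, so 1 time point was measured, and RNA came from the organ rather than from sorted cells. The question was which inflammatory transcripts differ between the doses, which lie 5-fold apart. The oviduct markers Ovgp1, Pax8 and Foxj1 are not on the panel, so the labelled tissue could not be checked against them.

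LPS is a component of the outer membrane of Gram-negative bacteria. It is carried to a receptor complex of Tlr4 and Ly96 (MD-2), which signals through Myd88 to NF-κB and MAP kinases and, by another adaptor route, to interferon-stimulated genes. Typical products are chemokines that attract monocytes and neutrophils, cytokines, and complement components, many of which epithelial and stromal cells of the reproductive tract can make.

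Values are digital counts divided by a lane scale, the geometric mean of 6 reference genes (Tubb5, Pgk1, Hprt1, Gusb, Gapdh and Cltc), and are called scaled counts. Differences are log2 differences, high minus low dose, ± standard error (SE), fitted with edgeR's quasi-likelihood test, with n = 4 mice per group. A gene is called past the threshold at a Benjamini-Hochberg adjusted p below 0.05 over all genes tested. Total counts over the endogenous probes were 129391 to 164383 in the low-dose lanes and 128258 to 196878 in the high-dose lanes. The 6 reference genes differed by -0.07 to 0.14 between the doses, and none passed the threshold.

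One low-dose mouse stood apart. Among the 37 genes past the threshold at the high dose against control (22.4% of genes tested), low-dose mouse 3 had the lowest value of the low-dose group in 28, against 80 of 165 genes overall (48.5%). Its value lay no higher than the highest control mouse in 30 of the 37 genes (81.1%), compared with 6, 3 and 12 genes for low-dose mice 1, 2 and 4. Over all 165 genes this held in 150 for mouse 3 (90.9%). For low-dose mice 1, 2 and 4 it held in 110, 108 and 112 (66.7%, 65.5% and 67.9%). Low-dose mouse 2 had the highest value of its group in 29 of the 37 genes, against 54 of all 165 (32.7%). The lane of mouse 3 held 139024 endogenous counts with 88.5% of fields counted, within the range of the other low-dose lanes for its total and the highest of them for its fields. Its lane scale from the reference genes, by which its counts are divided, was 1.25, the highest of the 12 lanes. The other low-dose lanes had scales of 1.01 to 1.14. The cause was not tested. Counts are therefore given with and without it; because its outcome values set it apart, the values without it are a description.

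At the high dose 11 genes were higher than at the low dose, 6.67% of the 165 tested, and 0 were lower by edgeR's test. On the reference scale and before adjustment, a p below 0.05 was found for 36 genes in the higher direction (21.8%). It was found for 1 gene, Pik3c2g, in the lower direction (0.606%). The 11 genes included the chemokines Ccl7, Ccl2, Cxcl10 and Cxcl1, the growth factor Csf1, the complement proteases C1r and C1s, and the receptors Il23r, Il8rb and Cd40, with folds of 1.88 to 8.44. In 10 of the 11, all but Il8rb, every high-dose mouse lay above every low-dose mouse, as it did in 24 of all 165 genes (14.5%). The reverse order was found in 0 genes. Without low-dose mouse 3, 9 genes were higher (5.52% of 163 tested), all of them among the 11; Il23r and C1s were no longer past the threshold.

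The absence of lower genes depends on the scale. The median log2 difference of all 165 genes was 0.21, and 136 were above 0. With TMM scaling the median was 0.00 and 8 genes were higher and 0 lower, and with the spiked positive controls it was 0.04, with 7 higher and 0 lower. Before adjustment, edgeR's p was below 0.05 for 20 genes higher and 12 lower with TMM or DESeq2 size factors. With the positive controls it was so for 20 higher and 2 lower. With total count scaling the median was -0.26, and 9 genes were higher and 36 lower, or 17 and 54 before adjustment. Complement C3 alone made up 13.6% ± 4.04 (SD) of the endogenous counts in low-dose lanes and 22.7% ± 1.98 in high-dose lanes, and it enters that total.

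**Figure D1:**
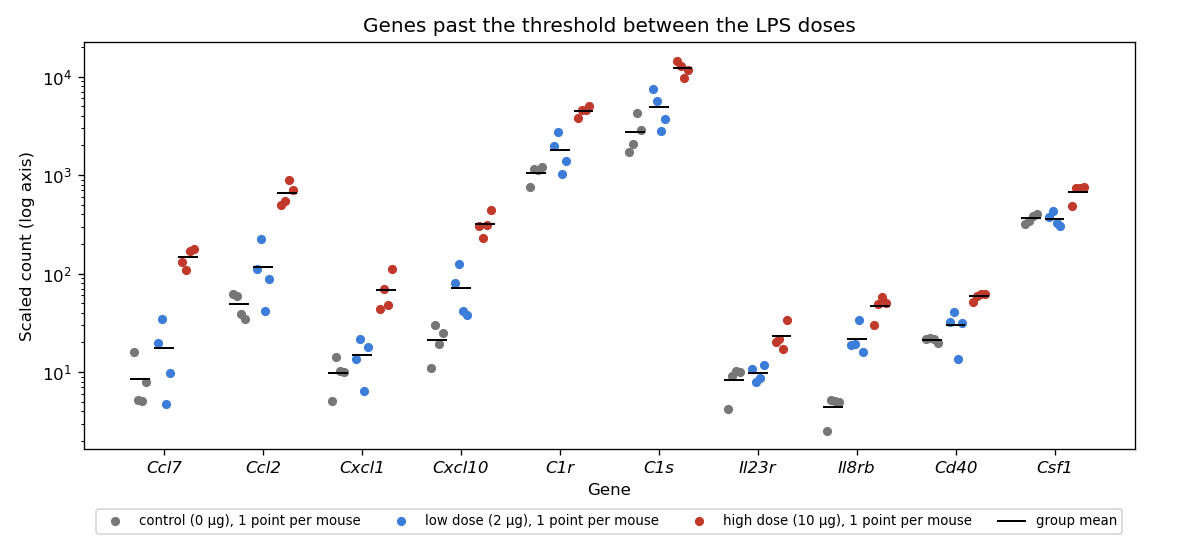
Scaled counts (log axis) of 10 of the 11 genes past the threshold between the doses, with 1 point per mouse for control (0 µg), low dose (2 µg) and high dose (10 µg) and a bar at each group mean. For all genes but Il8rb the 4 high-dose points lie above the 4 low-dose points, and for Csf1 and Il23r the low-dose points overlap the control points.

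Ccl7 and Ccl2 had the largest differences of the genes past the threshold. Ccl7, a ligand of Ccr2 that draws monocytes, had scaled counts of 19.9, 35, 4.78 and 9.91 in low-dose mice 1 to 4 and 132, 109, 170 and 178.6 in high-dose mice 1 to 4. The groups were far apart, and low-dose mice 3 and 4 lay below the highest control mouse (controls 5.11 to 16.0). The difference was 3.08 ± 0.52 (adjusted p = 0.00739), an 8.44-fold step with a 95% interval of 3.84-fold to 18.5-fold. Ccl2, the main ligand of Ccr2, measured 112, 225, 41.4 and 88.2 at the low dose and 497, 547, 885 and 712 at the high dose. Every high-dose mouse had more than any low-dose mouse, and the step was 2.50 ± 0.44 (adjusted p = 0.00739), or 5.66-fold. From control to the low dose Ccl7 differed by 0.97 (95% interval -0.26 to 2.20) and Ccl2 by 1.25 (0.30 to 2.20), and neither passed the threshold.

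Cxcl1 and Cxcl10 followed. Cxcl1, a neutrophil attractant that acts on Cxcr2, measured 13.6, 21.9, 6.38 and 17.8 at the low dose and 43.7, 70.5, 48.4 and 110 at the high dose, a step of 2.19 ± 0.41 (adjusted p = 0.00790). Its low-dose values overlapped the control values of 5.06 to 14.2, while its high-dose values were above all of them. Cxcl10, an interferon-stimulated ligand of Cxcr3, measured 79.6, 124, 41.4 and 37.7 at the low dose and 305, 232, 308 and 440 at the high dose, a step of 2.18 ± 0.41 (adjusted p = 0.00790). Here all low-dose mice lay above the control range of 11 to 29.8, and the step from control to low dose, 1.74 (0.82 to 2.67), had an adjusted p of 0.0537. Ccl7, Ccl2, Cxcl10 and Cxcl1 stayed past the threshold in every alternative in which they were tested, with a highest adjusted p of 0.0447.

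Csf1 showed no detectable step from control to the low dose. Csf1 encodes the growth factor that maintains macrophages. Its scaled counts were 316, 344, 389 and 403 in control mice, 378, 437, 327 and 305 in low-dose mice and 490, 738, 734 and 757 in high-dose mice. Control and low-dose values overlapped fully, and high-dose mouse 1 lay below its 3 group mates but above all low-dose mice. The low dose differed from control by -0.01 (95% interval -0.36 to 0.35), which keeps any low-dose change within 2-fold, and the high dose differed from the low dose by 0.91 ± 0.16 (adjusted p = 0.00739). With the positive control probes as the scale, Csf1 no longer passed the threshold (adjusted p = 0.0692), nor did it with a block for the header word (0.0572).

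Promoter sequence is shown for Csf1, Cxcl1 and Cxcl10, chosen for a match to a strict κB-type pattern. Among the genes past the threshold with a window in the RefSeq promoter table (GRCm38.p6), only these 3 had it. Each window runs from 250 bases before to 50 after the start. The strict pattern, searched on both strands, was GGGA, any base, TT, any base, CC, and the match is in capitals. The windows are chr3:107760420-107760719 on the minus strand for Csf1, chr5:90890995-90891294 on the plus strand for Cxcl1 and chr5:92348840-92349139 on the minus strand for Cxcl10, each written 5′ to 3′ along the gene.
Csf1: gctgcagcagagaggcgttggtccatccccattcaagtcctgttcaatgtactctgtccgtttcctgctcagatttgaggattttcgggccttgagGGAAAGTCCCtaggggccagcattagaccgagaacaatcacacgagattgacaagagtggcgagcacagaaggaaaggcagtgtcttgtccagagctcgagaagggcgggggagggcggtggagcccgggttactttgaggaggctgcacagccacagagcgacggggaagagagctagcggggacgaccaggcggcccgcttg
Cxcl1: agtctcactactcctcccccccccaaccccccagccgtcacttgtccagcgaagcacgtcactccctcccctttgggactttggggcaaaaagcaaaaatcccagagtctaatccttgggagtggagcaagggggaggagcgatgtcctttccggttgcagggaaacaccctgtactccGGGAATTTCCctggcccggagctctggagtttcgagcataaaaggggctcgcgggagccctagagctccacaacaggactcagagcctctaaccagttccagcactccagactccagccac
Cxcl10: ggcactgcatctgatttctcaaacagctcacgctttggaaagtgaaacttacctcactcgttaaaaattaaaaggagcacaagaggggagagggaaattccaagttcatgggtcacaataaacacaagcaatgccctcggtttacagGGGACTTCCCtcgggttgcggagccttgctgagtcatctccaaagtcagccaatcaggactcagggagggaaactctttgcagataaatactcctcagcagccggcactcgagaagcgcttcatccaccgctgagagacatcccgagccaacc
The match lies 154 to 145 bases before the start in Csf1, where it is on the opposite strand, 71 to 62 bases before it in Cxcl1 and 103 to 94 bases before it in Cxcl10. The pattern occurs in 1.2% of all 32851 windows of the table and in 7.24% of the 152 windows of panel genes tested. The 11 tested genes that hold it also include Cxcl2, Il6, Tlr2 and others that did not pass between the doses. Of the 11 genes past the threshold, 7 have a window in the table. A looser κB-type pattern (GGG, any 5 bases, CC) was found in 6 of these 7 genes, adding C1s, Il8rb and Il23r. It occurs in 50.8% of all windows and in 67.1% of those of panel genes tested. The pattern TTC, any 3 bases, GAA was found in C1r alone of the 7. It occurs in 8.3% of all windows and in 13.8% of those of panel genes tested. An interferon-response-type pattern (GAAA, any 2 bases, GAAA) was found among the genes past the threshold in Cxcl10, where it does not overlap the capitals above. That pattern occurs in 3.44% of all windows and in 5.92% of those of panel genes tested. The patterns were chosen with the promoters in view, and a match describes letters, not binding.

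C1r and C1s, the proteases that start the classical complement pathway with C1q, were higher at the high dose. C1r measured 1954, 2743, 1031 and 1401 at the low dose and 3759, 4531, 4543 and 4984 at the high dose, a step of 1.32 ± 0.26 (adjusted p = 0.00999) or 2.50-fold; with a block for the header word described at the end, its adjusted p was 0.0538. C1s measured 7494, 5706, 2810 and 3674 at the low dose and 14413, 12747, 9563 and 11577 at the high dose, a step of 1.29 ± 0.34 (adjusted p = 0.0433). In both genes the doses did not overlap, and low-dose mouse 3 lay within the control range. In C1s low-dose mouse 4 also lay within it (controls 1709 to 4284). The mouse genome holds near-identical copies of both genes, so their probes may not tell the copies apart. C1s lost its call when any of 9 of the 12 mice was left out (control 2 and 4, low-dose 2, 3 and 4, all high-dose mice), with steps of 1.10 to 1.57. It was also lost in 6 of 16 other alternatives, among them TMM and positive control scaling.

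The other complement genes did not pass between the doses. C3, the central component, lay just outside: it measured 21682, 26411, 11122 and 13374 at the low dose and 32249, 40560, 42846 and 48423 at the high dose, a step of 1.18 ± 0.34 (adjusted p = 0.0595). C4a, the fourth component, which has a near-identical copy in C4b, had 714 to 1737 at the low dose and 2085 to 4037 at the high dose, a step of 1.16 ± 0.33 (adjusted p = 0.0595). The doses did not overlap in either gene. C3 passed the threshold when control mouse 1, control mouse 4 or low-dose mouse 2 was omitted, C4a when control mouse 1 or high-dose mouse 1 was, and both with DESeq2. Of the 17 complement genes tested, 2 were higher, beside 6.67% of all genes, with a list median of 0.37 beside 0.21 for all genes.

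Cxcl9, which like Cxcl10 is an interferon-stimulated ligand of Cxcr3, measured 83.3, 116, 4.78 and 14.9 at the low dose and 129, 220, 175 and 335 at the high dose, and its step of 1.97 ± 0.75 did not pass (adjusted p = 0.144). Its low-dose mice ran from within the control range (1.29 to 8.18) to near the high-dose values. Ifnb1 and Ifng, which encode interferons, were not above background in enough lanes to be tested.

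Il23r, Cd40 and Il8rb were the receptors among the genes past the threshold. Il23r, a receptor chain for interleukin 23, measured 10.9, 7.88, 8.77 and 11.9 at the low dose and 20, 21.7, 17.4 and 33.6 at the high dose, a step of 1.22 ± 0.29 (adjusted p = 0.0303). Its control and low-dose values overlapped, with a low-dose step of 0.25 (95% interval -0.46 to 0.95). Cd40, a costimulatory receptor of antigen-presenting cells, measured 32.6, 41.1, 13.5 and 31.7 at the low dose and 51.2, 59.6, 62.1 and 61.5 at the high dose, a step of 0.98 ± 0.26 (adjusted p = 0.0494). Its high-dose mice were close together, and low-dose mouse 3 lay below all controls (19.9 to 22.0). Il23r was lost in 7 of the 12 fits that leave out 1 mouse (control 2, all low-dose mice, high-dose 2 and 4; steps 0.99 to 1.35). Cd40 was lost in 10 of them, all but those without low-dose mouse 2 or 3 (steps 0.74 to 1.18). Il23r was also lost in 3 of 15 other alternatives, among them limma-voom and background subtraction. Cd40 was lost in 11 of 16, among them TMM and total count scaling and the header-word block (adjusted p = 0.112).

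Il8rb was the gene past the threshold at both steps. It encodes the neutrophil chemokine receptor now named Cxcr2. It measured 2.53, 5.18, 5.11 and 4.99 in control mice, 19.0, 19.3, 33.5 and 15.9 at the low dose and 30.0, 48.8, 58.5 and 49.9 at the high dose. All LPS mice lay above all controls, and low-dose mouse 3 overlapped the high-dose range, unlike its place in most of the 37 genes. The low dose exceeded control by 2.30, which was 67.9% of the log2 difference between control and high dose, and the high dose exceeded the low dose by 1.09 ± 0.28 (adjusted p = 0.0433). No control lane lay above the negative control limit for Il8rb, so the low-dose difference and the share depend on values at background. The call between the doses was lost in 9 of the 12 fits that leave out 1 mouse (control 2, 3 and 4, low-dose 1, 2 and 4, high-dose 2, 3 and 4; steps 0.96 to 1.37) and in 10 other alternatives.

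To say how much of the high-dose level the low dose had reached, the low-dose difference from control was set beside the high-dose one on the log2 scale. Both share the control lanes, so the share is a description. Of the 37 genes past the threshold at the high dose, 10 were past it between the doses and not at the low dose, and in these the low dose had reached a median of 29.5% of the rise, from -0.58% for Csf1 to 44.5% for Cxcl10. A further 22 genes were past neither limit: they did not pass between the doses, and their 95% interval still allowed a 2-fold step. Their median share was 53.1%, from 3.76% for Nox1 to 89.1% for Ccl5. Nox1 lay above the negative control limit in 1 control lane and 2 low-dose lanes, and Cxcl2 (65.1%) in 0 control lanes. The shares of such genes depend on values at background. In 4 genes, C3ar1, Il15, Tgfb1 and Ly96, the whole interval of the step lay within 2-fold, as it did in 90 of all 165 genes (54.5%). The remaining gene was Il8rb. Whether a low-dose step differed in size from a high-dose step was not tested.

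**Figure D2:**
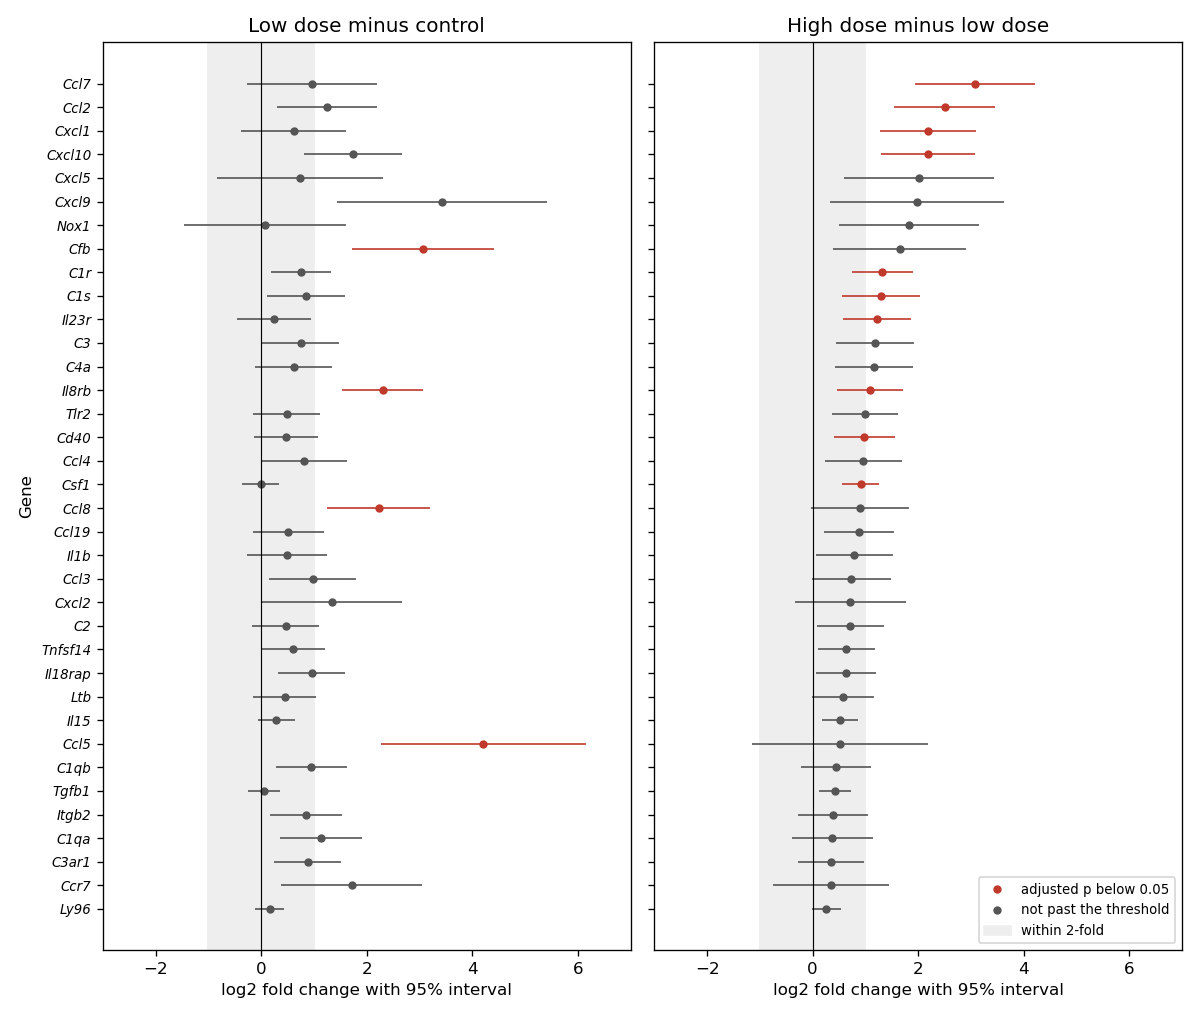
Log2 differences with 95% intervals of 36 of the 37 genes past the threshold at the high dose against control, for low dose minus control (left) and high minus low dose (right); red points have an adjusted p below 0.05 and the grey band marks 2-fold. Ccl5, Cfb, Ccl8 and Il8rb are red on the left, and Ccl7, Ccl2 and 8 other genes on the right.

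At the low dose 4 genes were above control (2.42% of genes tested): Ccl5, Cfb, Ccl8 and Il8rb. Ccl5, which attracts T cells and monocytes, measured 19.4, 40.1, 43.0 and 28.9 in controls, 714, 1484, 40.6 and 190 at the low dose and 604, 1002, 1210 and 655 at the high dose. Low-dose mice 1 and 2 lay within or above the high-dose range, while mouse 3 lay among the controls. The low-dose step was 4.21 and the high-minus-low step 0.52 ± 0.76 (adjusted p = 0.746). The interval of that last step, -1.16 to 2.19, is too wide to place Ccl5 near its high-dose level; without low-dose mouse 2 it was 1.46 and without mouse 3 it was 0.12.

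Cfb, the protease of the alternative complement pathway, measured 672, 1538, 174 and 338 at the low dose and 1427, 1942, 2662 and 2493 at the high dose. All low-dose mice exceeded the controls (46.4 to 116), and low-dose mouse 2 reached the high-dose range. The step between the doses was 1.65 ± 0.57 (adjusted p = 0.103), and without low-dose mouse 2 it was 2.43 and past the threshold. Ccl8, a further monocyte chemokine, measured 350, 587, 312 and 253 at the low dose and 732, 396, 888 and 780 at the high dose. The groups overlapped through low-dose mouse 2 and high-dose mouse 2, and the step was 0.90 ± 0.43 (95% interval -0.04 to 1.83, adjusted p = 0.217).

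**Figure D3:**
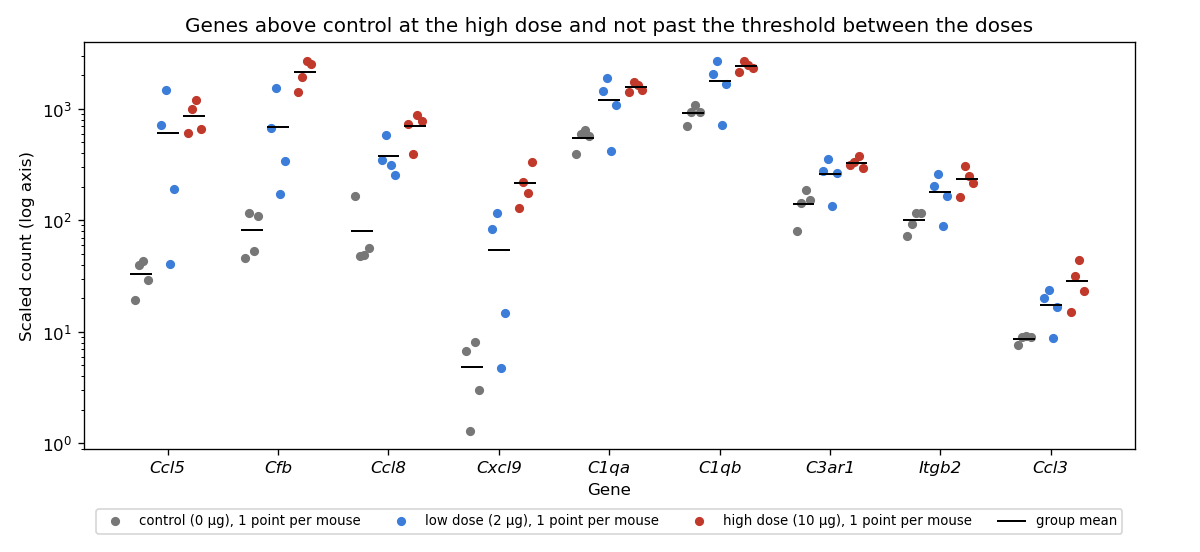
Scaled counts (log axis) of genes past the threshold at the high dose against control and not between the doses, with 1 point per mouse and a bar at each group mean for control (0 µg), low dose (2 µg) and high dose (10 µg). In Ccl5, C1qa, C1qb and C3ar1 1 low-dose mouse lies at the control level and the other 3 lie nearer to the high-dose values.

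Of the 37 genes, those raised over 2-fold at the high dose with the smallest steps were Ccr7, C3ar1, C1qa, Itgb2 and C1qb. The last 4 are genes of myeloid cells. No control lane lay above the negative control limit for Ccr7, so its rise over control depends on values at background. C3ar1, the receptor for the complement fragment C3a, measured 279, 351, 135 and 268 at the low dose and 314, 332, 374 and 297 at the high dose. Low-dose mouse 3 was the exception in a group that otherwise lay close to or within the high-dose range. The step was 0.35 (95% interval -0.28 to 0.98), and the low dose had reached 71.4% of the rise; with total count scaling the step was -0.07. C1qa, a subunit of C1q that macrophages make, measured 1432, 1893, 414 and 1075 at the low dose and 1410, 1728, 1623 and 1480 at the high dose, a step of 0.37 (-0.39 to 1.14). C1qb had a step of 0.44 (-0.22 to 1.11) and the leukocyte integrin chain Itgb2 one of 0.39 (-0.28 to 1.05). In these 3 genes the interval passed 2-fold on the upper side by a little, so they stayed unsettled.

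Without low-dose mouse 3 the intervals narrowed. Then 9 genes past the threshold against control had a step within 2-fold (5.52% of 163 tested), against 4 with it: C1qa, C1qb, C3ar1, Itgb2, Ccr7, Ltb, Il15, Tgfb1 and Ly96. The share of all tested genes within 2-fold was 54.5% with all mice and was not counted in this fit. The step of C1qa was then 0.09 (95% interval -0.36 to 0.54), that of C1qb 0.18 (-0.21 to 0.57) and that of Itgb2 0.16 (-0.38 to 0.70). Ccr7, the homing receptor of mature dendritic cells and lymphocytes, had a step of -0.02 (-0.78 to 0.74), at scaled counts of at most 15.8. Its control lanes were all at background. In the same fit the number of genes above control at the low dose was 14 (8.59% of 163 tested) in place of 4, and Ccl2, Cxcl10, C1r and Cd40 joined Il8rb as genes past the threshold at both steps. Of the chemokines, Ccl7 and Cxcl1 kept their place as genes past the threshold between the doses alone, as did Csf1.

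The myeloid levels concern bulk tissue, in which fewer cells of a type and less RNA per cell cannot be told apart. The summed scaled count of the 4 macrophage and monocyte markers on the panel (C1qa, C1qb, C3ar1 and Ccr2) was 1470 to 2077 in controls, 1357 to 5114 at the low dose and 4034 to 5058 at the high dose. C1qa and C1qb made up most of this sum, and Ccr2 did not follow them. Ccr2 measured 114 to 290 in controls, 93.2 to 398 at the low dose and 182 to 313 at the high dose. The step of Ccr2 between the doses was -0.23. None of the 4 passed between the doses. The 3 neutrophil markers (Il8rb, Il8ra and Itgb2) summed to 77.6 to 125 in controls, 125 to 282 at the low dose and 196 to 357 at the high dose, with 1 of 3 past the threshold. The 8 T and NK cell markers on the panel, of which 7 were tested, summed to 87.7 to 142 at the low dose. Their sum was 114 to 137 at the high dose, and Il23r was past the threshold. The smooth muscle and vessel markers Myl2, Ppp1r12b and Pdgfa summed to 705 to 984 and 811 to 937. No marker on these lists was at background in all LPS lanes, and the part of cell numbers in the gene differences was not tested.

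Il15, Tgfb1 and Ly96 met the 2-fold limit because their whole rise was small. Il15, a cytokine for NK and memory T cells, measured 35.7 to 45.5 at the low dose and 47.5 to 71.6 at the high dose, without overlap, a step of 0.52 ± 0.16 (adjusted p = 0.0720) that passed the threshold without high-dose mouse 1. Tgfb1 measured 202 to 313 and 314 to 399, also without overlap, with a step of 0.43 ± 0.14. Ly96, the Tlr4 partner that binds LPS, measured 190 to 272 and 270 to 314, nearly without overlap, with a step of 0.26 ± 0.12. In these genes the low dose had reached 35.2%, 10.7% and 38.3% of a rise that was itself under 2-fold, so the 2-fold limit does not separate a full from a partial low-dose response.

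The LPS receptor and the kinases below it differed little between the doses. Tlr4 measured 594, 619, 588 and 645 at the low dose and 635, 797, 684 and 705 at the high dose, a step of 0.21 ± 0.14 (95% interval -0.09 to 0.50). Tlr2, which senses bacterial lipoproteins, stood out within its list: it measured 67.0, 67.4, 23.9 and 39.6 at the low dose and 87.5, 108, 107 and 91.6 at the high dose, a step of 1.00 ± 0.28 (adjusted p = 0.0595). Its doses did not overlap, and its adjusted p was below 0.05 without low-dose mouse 2 (steps of 0.76 to 1.18 over all mice left out in turn) and with DESeq2. Of the 16 Toll-like receptors, adaptors and NF-κB genes, 0 passed in either direction, 12 had an interval within 2-fold, and the median was 0.19. Of 36 genes for MAP kinases and AP-1 factors, 0 passed, 34 lay within 2-fold, and the median was 0.09. Of the 16 small G protein and actin genes tested, 0 passed and 14 lay within 2-fold, with a median of 0.08, and of the 4 TGF-β family genes 0 passed and 4 lay within 2-fold. Before adjustment these 4 lists held 2, 3, 1 and 1 genes with a p below 0.05, all in the higher direction on the reference scale. Over all 165 genes the shares were 6.67% past the threshold, 54.5% within 2-fold and, before adjustment, 21.8% in the higher direction.

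**Figure D4:**
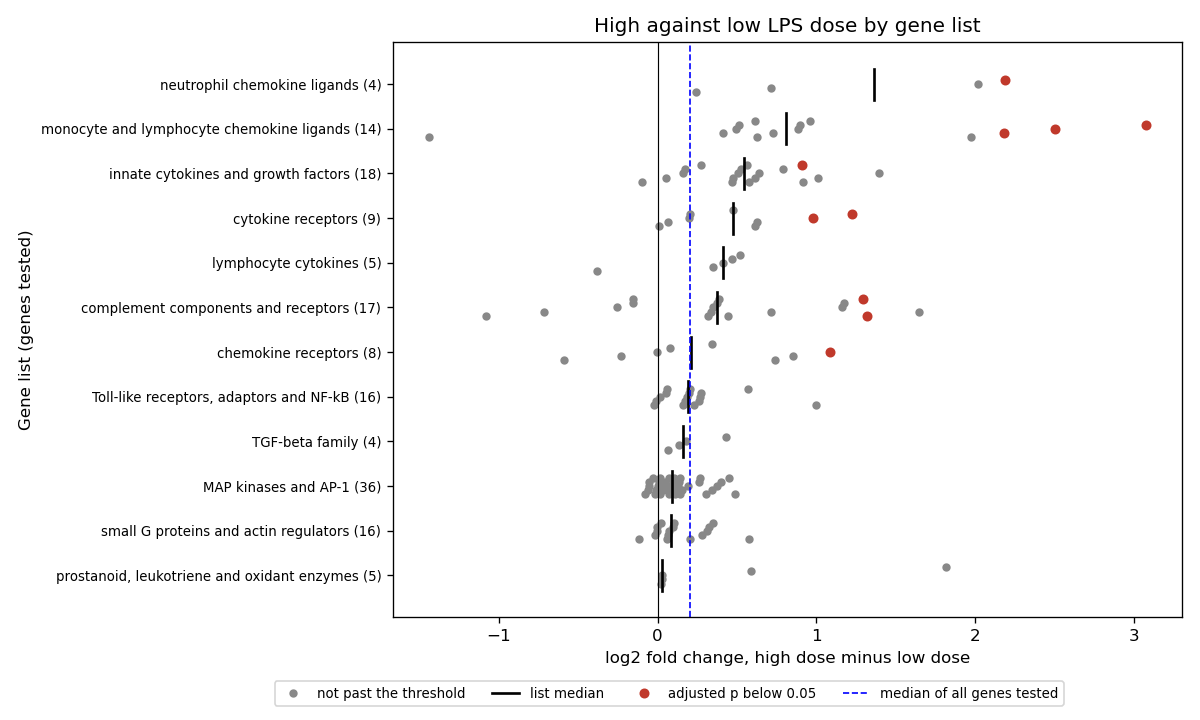
Log2 difference, high minus low dose, of every tested gene in each of 12 lists (points), with the list median (black bar), the median of all genes tested (dashed, 0.21) and zero (solid line); red points have an adjusted p below 0.05. The neutrophil and the monocyte and lymphocyte chemokine ligands have the highest medians (1.37 and 0.81), and the MAP kinase list lies in a narrow band around its median of 0.09.

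In the chemokine and cytokine lists the counts of higher genes stand beside 11 of 165 genes overall (6.67%) and beside 0.21, the median of all genes. Of 14 monocyte and lymphocyte chemokine ligands 3 were higher (Ccl7, Ccl2 and Cxcl10), with a list median of 0.81. Of 4 neutrophil chemokine ligands 1 was higher (Cxcl1), with a median of 1.37. Cxcl5, another neutrophil ligand, measured 23.5, 12.3, 12 and 17.8 at the low dose and 20, 48.8, 71.2 and 125 at the high dose, a step of 2.02 ± 0.65 (adjusted p = 0.0991). Only high-dose mouse 1 overlapped the low dose, and without it Cxcl5 passed the threshold. Of 8 chemokine receptors 1 was higher, of 9 cytokine receptors 2, of 18 innate cytokines and growth factors 1, and of 5 lymphocyte cytokines and 5 prostanoid and oxidant genes 0. In every list 0 genes were lower on the reference scale.

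The cytokines most often measured after LPS were low and did not pass between the doses. Tnf measured 16.3, 2.63, 0.797 and 19.8 at the low dose and 13.7, 26.0, 28.3 and 33.6 at the high dose, a step of 1.39 ± 0.66 (95% interval -0.07 to 2.85, adjusted p = 0.217). The groups overlapped, and low-dose mice 2 and 3 were near background, whose limit was a raw count of 3.16 to 6.57 in the LPS lanes. Il6 measured 5.43, 5.25, 3.19 and 41.6 at the low dose and 8.75, 18.4, 8.22 and 45.2 at the high dose, a step of 0.56 ± 0.94 (adjusted p = 0.792), with 1 mouse per group far above the others. Il1b measured 27.2, 46.4, 25.5 and 25.8 at the low dose and 38.7, 52.0, 66.7 and 58.0 at the high dose, a step of 0.79 ± 0.33 (adjusted p = 0.186), in which only low-dose mouse 2 reached the high-dose range. Nos2, the inducible nitric oxide synthase, had a step of 0.59 ± 0.31 (adjusted p = 0.279). The intervals of Tnf and of Il6 (-1.51 to 2.63) both include 0 and a 2-fold difference.

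The genes with the lowest differences varied widely between mice. Ccl24, an eosinophil chemokine, measured 8.15, 13.1, 65.3 and 8.92 at the low dose and 1.25, 18.4, 8.22 and 6.96 at the high dose, a step of -1.44 ± 0.82 (adjusted p = 0.329). Pik3c2g, a lipid kinase, measured 6.34, 15.8, 12 and 10.9 at the low dose and 1.25, 3.25, 7.31 and 6.96 at the high dose, a step of -1.20 ± 0.41 (adjusted p = 0.103), near background. The MHC class II chains ran apart: H2-Ea had 48.0, 1074, 31.1 and 23.8 at the low dose and 57.5, 33.6, 38.4 and 4.64 at the high dose, and H2-Eb1 had 48.9, 648, 27.9 and 497 against 82.5, 1287, 1484 and 4051. Neither passed between the doses (adjusted p = 0.304 and 0.215). A single high value in low-dose mouse 2 set the H2-Ea difference of -3.13. Control mouse 2 was also high, at 1334, with the other controls at 5.11 to 43.9.

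Other genes at the edges of their lists did not pass either. Il1rn, the interleukin 1 receptor antagonist, measured 13.9 to 27.9 at the low dose and 20 to 55.7 at the high dose, a step of 1.01 ± 0.39. Ccl4, a chemokine for monocytes and T cells, measured 7.24 to 19.8 and 18.7 to 38.4, a step of 0.96 ± 0.33. Hspb2, a small heat shock protein of muscle, measured 136 to 169 and 190 to 248 without overlap, a step of 0.57 ± 0.20. They were among the highest of the genes not past the threshold or of their list, with adjusted p-values of 0.144, 0.103 and 0.103. The steps of Fasl (0.52 ± 0.47), Fos (0.48 ± 0.51) and Cxcl3 (0.24 ± 0.41) had intervals on both sides of 0. So had those of the receptor Ccr3 (-0.59 ± 0.63), the T cell genes Cd4 (-0.36 ± 0.40) and Cd40lg (-0.38 ± 0.46), and the lectin pathway protease Masp2 (-0.26 ± 0.71). Gnaq (-0.11 ± 0.10), Myc (-0.08 ± 0.20), Tlr5 (-0.02 ± 0.24) and Pla2g4a (0.02 ± 0.17) had intervals that stayed within 2-fold and included 0.

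Over all 165 genes the median SD of log2 scaled counts was 0.327 in control mice, 0.288 in low-dose mice and 0.231 in high-dose mice, and the low-dose spread exceeded the high-dose spread in 106. Among the 37 genes the medians were 0.515, 0.592 and 0.382. These genes were chosen by the test of the high dose against control, so their spreads are a description, and the cause of the differences was not tested. High-dose mouse 1 had the lowest value of its group in 28 of the 37 genes and in 89 of all 165. The first sample line of the table carries a word for each lane, whose meaning is not given in the sources used here. Within the 3 words that span both doses, the median differences of the 11 genes past the threshold were 1.00 (high-dose mouse 1 against low-dose mouse 2), 2.14 (high-dose mice 2 and 3 against low-dose mouse 3) and 1.59 (high-dose mouse 4 against low-dose mice 1 and 4). These genes were chosen for their difference in the same lanes, so a positive sign in each word follows from that choice. In the first of these pairs Ccl5 differed by -1.30, C1qa by -0.42 and Cfb by -0.11. With the word as a block, 6 of the 11 genes passed the threshold.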

How the data were processed

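Oviduct RNA of 12 mice was profiled with NanoString's nCounter GX Mouse Inflammation Kit, which counts fluorescent barcodes bound to each mRNA without amplification. The authors deposited 1 table of raw barcode counts with 1 column per lane, handled here under the rules of estimated counts because each column also holds a decimal line for binding density. All 2388 probe values are whole, so rounding changed nothing. The sources used here do not state the instrument software's own steps. RNA integrity numbers were above 9.7 and 28S/18S ratios above 2.0, per the labels' protocols. Groups came from the sample titles, and the labels name 4 mice per treatment, so replicates are separate animals.

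Genes were tested if the raw count exceeded the mean plus 2 SD of the 8 negative control probes of the lane in at least 4 lanes. Counts were fitted with edgeR 4.0.16 (R 4.3.3, glmQLFit and glmQLFTest) over all 12 lanes, with the geometric mean of the 6 reference genes as offset and no covariate. Benjamini-Hochberg adjustment ran over the 165 genes. SEs and 95% intervals came from the F statistic, and "within 2-fold" means both bounds between -1 and 1. Alternatives changed the scale, the test (DESeq2 1.42.0, limma 3.58.1, the analysis of variance named in the series design), the filter, the background and the lanes. The code was tested on simulated data.

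The text names the genes past the threshold (1 excepted, below), the 10 highest and 6 lowest of the others with a mean scaled count of at least 20, genes within 2-fold or past the threshold at the low dose, the extremes of each list, and 15 genes whatever their values besides the reference genes. Other genes were named after their values were seen. Members, lists, rules and tests were chosen with earlier results of these data known. Replicate numbers were not taken to pair the mice of this comparison: deviations of same-numbered low-dose and high-dose mice correlated at -0.13 to 0.58 across genes. Control and low-dose mice correlated at -0.13 to 0.27, and control and high-dose mice at 0.11 to 0.38. No 2 lanes of a group agreed within sampling noise (over 18 pairs, chi-square per degree of freedom was at least 16.1). Symbols are those of the table; RefSeq (GRCm38.p6) accessions matched 179 of 185, and 8 current symbols differ, among them C1r (C1ra), C1s (C1s1) and Il8rb (Cxcr2). One gene past the threshold between the doses is not reported here by name, in the text or the figures, though it is in the counts.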

Additional observations from a re-analysis of the deposited data

Results flagged for a closer look

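Of 126 groups of 4 mice examined, 9 held 1 mouse set apart from the other 3 by Dixon's gap; about 6.3 of 126 would be found by chance. Csf1 in high-dose mouse 1 was at 490 scaled counts, with the other high-dose mice at 734 to 757; without that mouse the difference between the doses was 1.04 in place of 0.91. H2-Ea in low-dose mouse 2 was at 1074, with the others at 23.8 to 48.0. Cfd, the adipsin protease of the complement alternative pathway, was at 417 in low-dose mouse 4, with the others at 3.98 to 22.8. Il6 in the same mouse was at 41.6, with the others at 3.19 to 5.43. High values of these 3 genes also occurred in control mice. H2-Ea was at 1334 and Il6 at 33.7 in control mouse 2, and Cfd ran from 3.88 to 2039 over the controls. Ccl24 in low-dose mouse 3 was at 65.3, with the others at 8.15 to 13.1. Il1b in low-dose mouse 2 was at 46.4, with the others at 25.5 to 27.2. Il23a in high-dose mouse 1 was at 11.2, below the others at 14.6 to 15.2. Among the reference genes, Hprt1 in low-dose mouse 2 was at 736, below the others at 841 to 844, and Pgk1 in high-dose mouse 3 was at 1062, below the others at 1227 to 1243.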

How the results depend on the processing

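The count of higher genes, 11 as reported, was 8 to 11 with TMM, DESeq2 size factors, total count, 4 reference genes, limma-voom, other filters, only the 8 LPS lanes and the replicate block, which kept 9 of the 11 (not C1s or Cd40). It was 7 with positive control scaling, 7 with background subtracted, 19 with DESeq2, 28 with the series' own test at its unadjusted threshold and 20 after Benjamini-Hochberg. Leaving out 1 mouse gave 6 to 14, the 6 on omitting low-dose mouse 4 or high-dose mouse 4, and 7 on omitting control mouse 2, high-dose mouse 2 or high-dose mouse 3. Chosen after seeing the data, leaving out control mice 2 and 4 (73.7% and 62.3% of fields counted) gave 7, and a block for the header word gave 6. Total count scaling gave 36 lower genes and the other settings 0; under it Il6ra was lower by -0.47 (adjusted p = 0.0408) and Tgfbr1 by -0.40 (adjusted p = 0.0171), reversing directions that were not past the threshold.

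The 4 genes past the threshold against control with a step within 2-fold became 31 with TMM, 34 with DESeq2 size factors, 67 with total count, 9 with positive control scaling, DESeq2 or the series' own test, 1 after its Benjamini-Hochberg adjustment, 2 with the replicate block, 7 without control mice 2 and 4 and 0 with the header-word block. It was 1 to 9 when 1 mouse was left out. The causes were not tested. Over the named genes, 1300 of the alternative values kept direction and side of the threshold, 72 lost a call, 37 gained one and 2 reversed. Counts near the negative control limits and 4 mice per group limit what can be detected.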
